A study of Rattus norvegicus with 12 samples.

Results

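Enzymes that inactivate steroid hormones were examined in the livers of rats given D-penicillamine or water. The set was defined as Hsd17b2, Sult1e1, Akr1d1, Srd5a1, Hsd11b1, Hsd11b2 and Hsd17b10, and every probe set annotated to exactly 1 of these 7 symbols was taken. Probe sets were found for 6 of the 7 genes, 1 each, out of 10411 named genes on the array. Srd5a1, a steroid 5-alpha reductase, was not analysed here. All 12 animals were male Brown Norway rats, an inbred strain, of 150 to 170 g, whose livers were taken at 6 h. The treated group (n = 8) was gavaged once with D-penicillamine, 150 mg/kg in 1 mL of tap water, and the vehicle group (n = 4) with water. D-penicillamine, a sulfur-containing amino acid, chelates copper. The title of the series concerns idiosyncratic drug reactions, those that arise in some individuals and not in others, so the values of single rats are of interest beside the group means. RNA of each rat was hybridised to its own Affymetrix array, and the deposited values are log2 values made with RMA, in which a step of 1 is a 2-fold change.

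The liver removes steroid hormones in steps. Dehydrogenases convert the hydroxyl group that a receptor recognises into a ketone, and reductases saturate a ring of the steroid. Transferases attach sulfate or glucuronate so that the product can be excreted. The same family of hydroxysteroid dehydrogenases also holds enzymes that work in the opposite direction and regenerate an active hormone. The name of the set therefore does not hold for every member. Hsd11b1 acts in intact liver cells mainly as a reductase that regenerates active glucocorticoid, and Hsd17b10 is a mitochondrial enzyme of isoleucine breakdown and of transfer RNA processing, with steroids among its substrates.

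Both groups held an array that stood apart. D-penicillamine rat 4 lay farthest from its group, with a root mean square distance from the group mean of 0.195 over all probe sets, against 0.104 to 0.147 in the 7 other treated rats. Vehicle rat 3 had the largest excess of 3' over 5' signal in the actin and Gapdh controls, a measure of RNA quality, at 1.19 on the log2 scale against 0.43 to 0.605 in the 11 other rats. All arrays came from 1 chip lot and were scanned on 1 day, and every vehicle array was scanned before the first D-penicillamine array. Scan order and treatment cannot be told apart. The difference of each enzyme is therefore also given without each of these 2 rats.

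Of the 6 enzymes, Hsd17b2 stood out by size. It was about 1.94-fold higher over all 8 treated rats, of which 7 lay above the vehicle mean. The other 5 enzymes differed by 0.14 or less on the log2 scale in either direction. Hsd11b1 was 10.4% higher, and Hsd11b2 differed by -8.14%. Akr1d1, Hsd17b10 and Sult1e1 differed by 0.075, -0.039 and -0.0063 on the log2 scale. The genes were chosen by their annotation, but with the D-penicillamine minus vehicle differences of these arrays already known. These differences and their intervals are therefore descriptions, and counts from the fit over all probe sets are given only beside the same counts for the whole array.

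**Figure D1:**
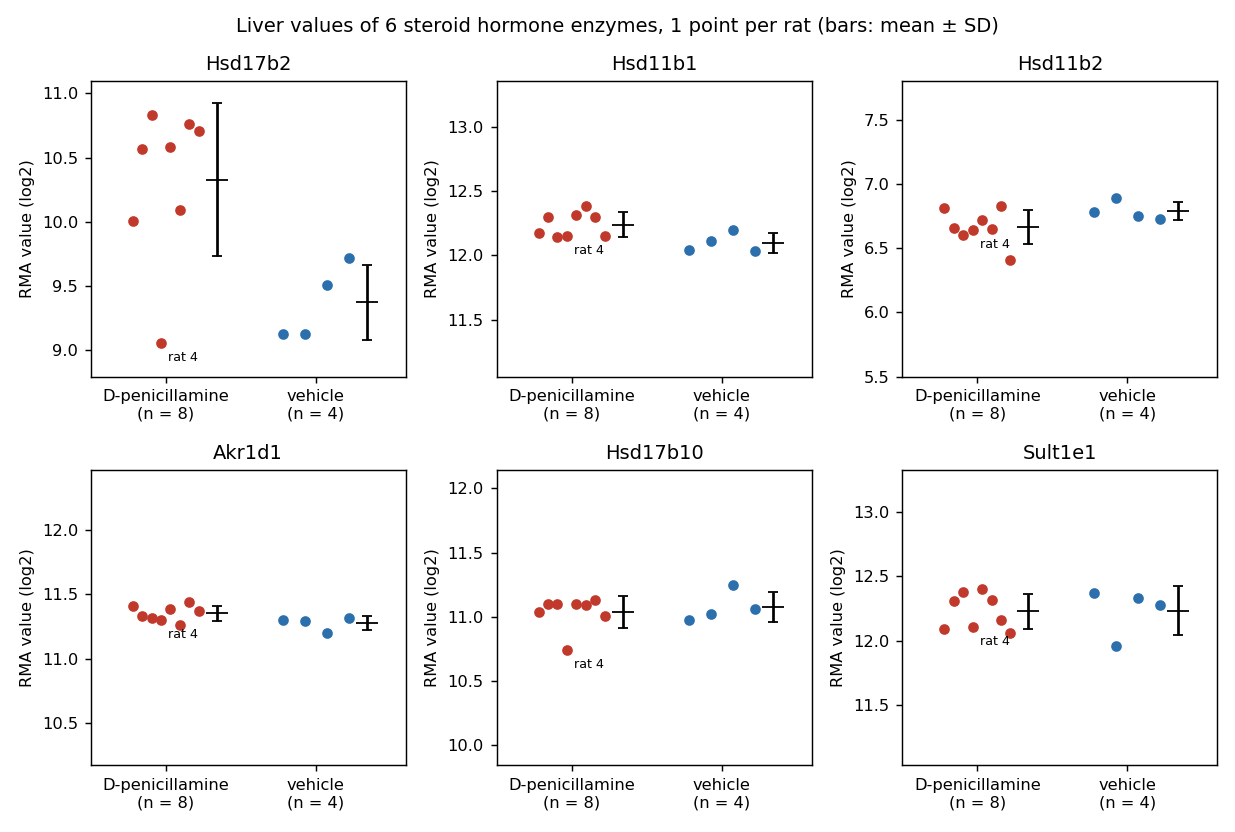
RMA values (log2) of the 6 enzymes in each rat, D-penicillamine (red, n = 8) left of vehicle (blue, n = 4), with the mean and SD beside the points and D-penicillamine rat 4 named; every panel spans the same log2 range. For Hsd17b2, 7 treated rats lie at 10.01 to 10.83, above all vehicle rats, and rat 4 lies at 9.06.

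Hsd17b2 encodes the 17-beta-hydroxysteroid dehydrogenase that oxidises estradiol to estrone and testosterone to androstenedione. Its log2 values in the D-penicillamine rats had a lowest value of 9.06, a median of 10.6 and a highest value of 10.83. The vehicle rats measured 9.13, 9.13, 9.51 and 9.72. The groups overlapped through 1 animal, since 7 of 8 treated rats lay above every vehicle rat and D-penicillamine rat 4 lay below every vehicle rat. The means were 10.33 ± 0.59 after D-penicillamine (SD, n = 8) and 9.37 ± 0.29 after vehicle (SD, n = 4). The difference was 0.95 (SE 0.27, 95% interval 0.39 to 1.52), which is 1.94-fold with an interval of 1.31 to 2.87. In absolute size it ranked 3 among the 15866 probe sets tested, after those of Lcn2 and Nr0b2.

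The 7 treated rats that were high for Hsd17b2 did not form a single level. Rats 1 and 6 were at 10.01 and 10.09, and the other 5 lay between 10.57 and 10.83. Set against the vehicle mean, the 7 rats ranged from 1.56-fold to 2.75-fold higher, and rat 4 differed by -0.31 on the log2 scale. The lowest of the 7 was 0.29 above the highest vehicle rat. Without rat 4 the difference was 1.13 (SE 0.16, 95% interval 0.79 to 1.48), or 2.20-fold. Leaving out vehicle rat 3 gave 1.00 (SE 0.30), and leaving out both rats gave 1.18 (SE 0.18).

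Hsd17b2 was also among the most variable probe sets within groups. Its within-group SD of 0.522 ranked 45 of 15866, against a median of 0.103 over all probe sets. Among the treated rats alone its SD ranked 30, and among the vehicle rats 366. The SD was 2.03 times as large after D-penicillamine as after vehicle, and 0.33 in the 7 treated rats other than rat 4. The vehicle rats themselves spanned 0.59 on the log2 scale. In scan order the first 4 treated arrays read 10.01, 10.57, 10.83 and 9.06, and the last 4 read 10.58, 10.76, 10.09 and 10.71. Rat 4 was scanned in the middle of the treated series, between arrays with high values, and the part of scan order in its value was not tested.

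Sult1e1 encodes the estrogen sulfotransferase, which attaches sulfate to estradiol and estrone and so keeps them from the receptor. In D-penicillamine rats its lowest, median and highest log2 values were 12.06, 12.24 and 12.40, and in vehicle rats the values were 12.37, 11.96, 12.33 and 12.28. The ranges overlapped almost fully, and treated rats fell evenly around the vehicle mean, 4 above and 4 below. The difference was -0.0063 (SE 0.085), with an interval of -12.2% to 12.9%. The vehicle value of 11.96, that of rat 2, was the lowest of all rats, and without it the difference was -0.098. Without D-penicillamine rat 4 the difference was 0.011 and without vehicle rat 3 it was 0.025, so its sign was not settled. With all rats, the interval of Sult1e1 lay wholly below that of Hsd17b2, as did those of the other enzymes. This is a description, since the genes were chosen with these differences known.

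Akr1d1 encodes the 5-beta reductase, which saturates the ring of glucocorticoids, androgens and progesterone and also works in bile acid synthesis. Its values after D-penicillamine had a lowest of 11.26, a median of 11.35 and a highest of 11.44. The vehicle rats measured 11.30, 11.29, 11.20 and 11.32. Although 5 of 8 treated rats lay above every vehicle rat, the groups overlapped, and the whole span of 12 rats was narrow. The difference was 0.075 (SE 0.045, 95% interval -0.021 to 0.17), or 0.083 without D-penicillamine rat 4 and 0.049 without vehicle rat 3. Its within-group SD of 0.058 was the smallest of the 6 enzymes.

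The glucocorticoid enzymes form an opposing pair. Hsd11b1 regenerates corticosterone, the main glucocorticoid of the rat, from its inactive ketone, and Hsd11b2 oxidises corticosterone to that ketone, chiefly in kidney. Hsd11b1 had a lowest value of 12.14, a median of 12.24 and a highest value of 12.38 in D-penicillamine rats, and measured 12.04, 12.11, 12.20 and 12.03 in vehicle rats. All 8 treated rats lay above the vehicle mean and 4 lay above every vehicle rat, so the groups overlapped in part. The means were 12.24 ± 0.095 after D-penicillamine (SD, n = 8) and 12.10 ± 0.079 after vehicle (SD, n = 4). The difference was 0.14 (SE 0.057, 95% interval 0.021 to 0.26), that is 10.4% higher with an interval of 1.47% to 20.1%. It was 0.16 without D-penicillamine rat 4 and 0.18 without vehicle rat 3.

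Hsd11b2 lay on the other side. Its lowest, median and highest values were 6.41, 6.66 and 6.83 in D-penicillamine rats, and the vehicle rats measured 6.78, 6.89, 6.75 and 6.73. Of the 8 treated rats 6 lay below every vehicle rat, and the remaining ones, rats 1 and 7, fell within the vehicle range. The difference was -0.12 (SE 0.068, 95% interval -0.27 to 0.023), or -0.12 without D-penicillamine rat 4, -0.14 without vehicle rat 3 and -0.086 without D-penicillamine rat 8, the lowest rat. RMA values carry no detection call, so whether liver held the Hsd11b2 transcript was not determined. Of 8 markers of kidney tubule, where Hsd11b2 is known to be active, 6 were higher and 2 lower, with mean levels of 5.55 to 5.74 in D-penicillamine rats and 5.50 to 5.65 in vehicle rats.

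Hsd17b10 showed the rat that stood apart more sharply than any group difference. In D-penicillamine rats its lowest, median and highest values were 10.74, 11.10 and 11.13, and in vehicle rats the values were 10.98, 11.02, 11.25 and 11.06. D-penicillamine rat 4 held the value of 10.74, and the 7 other treated rats lay within 11.01 to 11.13, inside the vehicle range. The difference was -0.039 (SE 0.072), with an interval of -12.4% to 8.21%. It was 0.0039 without rat 4 and 0.019 without vehicle rat 3, whose 11.25 was the highest value, so the sign of the difference turned when either rat was left out.

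**Figure D2:**
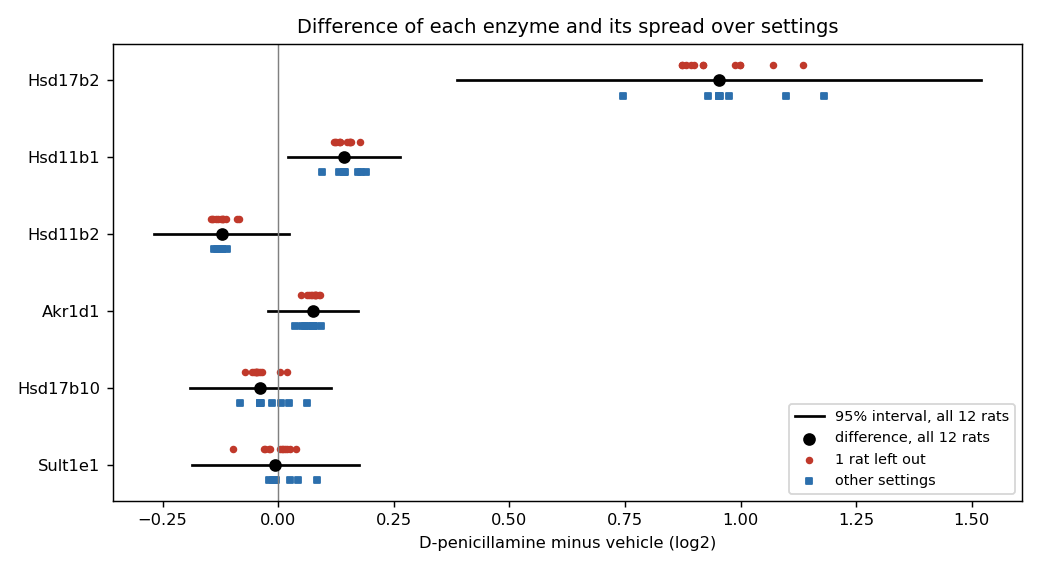
Difference of each enzyme (log2, D-penicillamine minus vehicle), with its 95% interval from limma over all 12 rats (black), the values with 1 rat left out (red) and those under the other settings (blue squares). Hsd17b2 stays between 0.745 and 1.18 throughout, while Hsd17b10 and Sult1e1 lie on both sides of 0.

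Counts over the set were read against all probe sets. In limma, 0 of the 6 enzymes passed an adjusted p of 0.05 over the whole table, where 0% of all 15866 probe sets did, the lowest adjusted p being 0.147. Before adjustment, 2 of 6 had a p under 0.05, Hsd17b2 and Hsd11b1, both higher, where 2.68% of all probe sets were higher at that level and 3.48% were lower (977 in all). Groups that did not overlap were found for 0 of 6, against 0.195% of probe sets higher and 0.378% lower. By sign, 3 enzymes were higher and 3 lower, and the median difference of the 6 was 0.034, against -0.0025 over all probe sets. The median absolute difference was 0.099 in the set and 0.048 over all. Because the set was chosen with this comparison known, nothing is read from these counts.

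The enzymes were also compared rat by rat once each group's mean was removed. Over 15 pairs Pearson's r of the 12 residuals ran from -0.30 to 0.79 with a median of 0.30, and 0 pairs passed a permutation test within groups after Benjamini-Hochberg adjustment over the 15 pairs. With 12 arrays this does not show that the enzymes varied independently. The highest was Hsd17b2 with Hsd17b10, at r = 0.79 (permutation p = 0.0194, adjusted p = 0.232) and Spearman's rho = 0.56 (permutation p = 0.0461, adjusted p = 0.589). D-penicillamine rat 4 was the lowest treated rat for both. Without rat 4 and vehicle rat 1, the rats farthest from the median of Hsd17b2, r was 0.27, so the relation rested on those rats. Hsd11b1 with Hsd17b10 gave r = 0.60 (permutation p = 0.0309, adjusted p = 0.232) and rho = 0.51 (permutation p = 0.081, adjusted p = 0.589). Without D-penicillamine rats 5 and 6, the rats farthest from the median of Hsd11b1, r was 0.62. That left in D-penicillamine rat 4 and vehicle rat 3, the lowest and highest rats for Hsd17b10, whose part in this r was not tested. Hsd17b2 and Hsd11b1, the enzymes with the highest differences, gave r = 0.17, and r = -0.28 without rat 4 and vehicle rat 1.

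**Figure D3:**
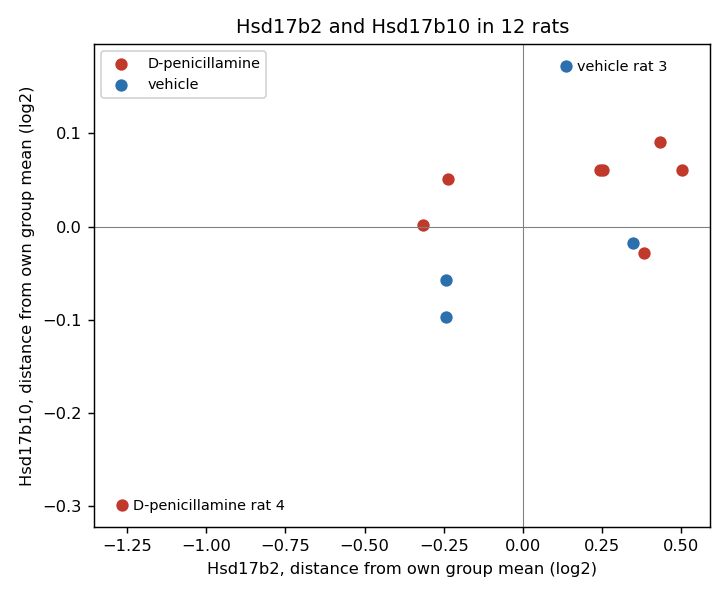
Distance of each rat from its own group mean for Hsd17b2 (horizontal, log2) and Hsd17b10 (vertical, log2), D-penicillamine rats red and vehicle rats blue. D-penicillamine rat 4 lies alone at the lower left, and r is 0.79 over 12 rats and 0.27 without it and vehicle rat 1.

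For each enzyme that varied more than the median probe set, the most similar patterns were sought among 12782 probe sets of other genes, as the Pearson correlation of within-group residuals over 12 arrays. These are the highest of many, so no p is given. Closest to Hsd17b2 were Pcnx4 (r = 0.93, rho = 0.78), Copg2, a subunit of the coatomer coat of transport vesicles (r = 0.93, rho = 0.84), and Rnf146, a ubiquitin ligase (r = 0.93, rho = 0.84). Without D-penicillamine rat 4 and vehicle rat 1 these values were 0.78, 0.85 and 0.79. Rat 4 was the lowest of all 12 rats for each of the 3. Their group differences, at -0.054, -0.029 and -0.076, did not resemble that of Hsd17b2 in size.

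Hsd17b10 was followed most closely by Zdhhc16, a palmitoyltransferase (r = 0.97, rho = 0.86), Cyp2j3, a cytochrome P450 of fatty acid epoxidation (r = 0.96, rho = 0.90), and Ecsit, a factor in assembly of respiratory complex I (r = 0.95, rho = 0.83). Without D-penicillamine rat 4 and vehicle rat 3 these were 0.88, 0.88 and 0.86. Cyp2j3 was at 8.51 in rat 4, against 9.19 to 9.72 in the 7 other treated rats and 9.06 to 9.99 in vehicle rats. Hsd11b2 was followed by Exoc6b (r = 0.96, rho = 0.84), Atp2c1 (r = 0.92, rho = 0.87) and Dcx (r = 0.89, rho = 0.75), or 0.90, 0.84 and 0.80 without D-penicillamine rat 8 and vehicle rat 2. Sult1e1 was followed by Plscr2, Pcm1 and C19h1orf198 at r = 0.88, 0.88 and 0.86 and rho = 0.78, 0.84 and 0.83, which became 0.78, 0.83 and 0.72 when D-penicillamine rat 8 and vehicle rat 2 were left out. No gene named here appeared beside more than 1 enzyme.

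Rat 4 was set apart in many genes besides Hsd17b2 and Hsd17b10. It was the lowest treated rat, with a gap to the next rat past Dixon's 95% limit, in 2.70% of all probe sets, against 0.0693% to 0.529% for each of the 7 other treated rats. It was likewise the highest, past the same limit, in 2.23%, against 0.0756% to 1.22% for each of the others, so it deviated in both directions. In 7 of 8 lists of related genes its mean level lay below all 11 other rats, the exception being glucocorticoid targets. Some genes stand in more than 1 list, and the list of branched-chain amino acid breakdown does not concern steroids. For bile acid synthesis its mean was 10.091, against a lowest vehicle mean of 10.097. Its mean also lay below all 11 other rats for periportal, stellate and adrenal cortex markers. For the list of 22 other steroid reductases, dehydrogenases and isomerases its mean was 8.03, while all treated rats spanned 8.03 to 8.24 and vehicle rats 8.16 to 8.24. The part of these deviations in the low Hsd17b2 value of rat 4 was not tested.

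In whole liver, fewer cells of a type and less RNA per cell cannot be told apart, so markers of the cell types were read beside Hsd17b2. Of 9 hepatocyte markers 5 were higher and 4 lower, with mean levels of 13.01 to 13.13 in D-penicillamine rats and 12.88 to 13.11 in vehicle rats. Of 7 Kupffer cell markers 7 were higher, with means of 8.34 to 8.53 in D-penicillamine rats and 8.24 to 8.47 in vehicle rats. Of 11 stellate cell and fibroblast markers 2 were higher and 9 lower, with means of 6.60 to 6.92 in D-penicillamine rats and 6.77 to 7.04 in vehicle rats. Of 7 liver endothelial cell markers 7 were lower, with means of 7.06 to 7.20 in D-penicillamine rats and 7.10 to 7.32 in vehicle rats. Pericentral hepatocyte markers were higher in 5 of 8, with means of 10.31 to 10.55 in D-penicillamine rats and 10.19 to 10.52 in vehicle rats. Periportal hepatocyte markers were higher in 4 of 8, with means of 10.70 to 11.42 in D-penicillamine rats and 11.04 to 11.34 in vehicle rats. Bile duct cell markers were higher in 3 of 5, with means of 5.86 to 6.05 in D-penicillamine rats and 5.78 to 6.05 in vehicle rats. Lymphocyte markers were higher in 5 of 7, with means of 5.45 to 5.57 in D-penicillamine rats and 5.43 to 5.52 in vehicle rats. Adrenal cortex markers were higher in 2 of 6, with means of 6.27 to 6.48 in D-penicillamine rats and 6.29 to 6.44 in vehicle rats. None of these lists had a marker past the adjusted threshold in limma, which 0% of all 15866 probe sets passed, and all group ranges overlapped. Before adjustment, 3 of 7 Kupffer cell markers were higher and 4 of 11 stellate cell and fibroblast markers lower at a limma p under 0.05. Among pericentral, bile duct and adrenal cortex markers 1 each was higher at that level, and none in the other lists. Over all probe sets 2.68% were higher and 3.48% lower at that level. The part of these cell types in the difference of Hsd17b2 was not tested. Rat 4 had the lowest hepatocyte mean of the treated rats, 13.01, which lay inside the vehicle range. Its periportal mean of 10.70, its stellate mean of 6.60 and its adrenal cortex mean of 6.27 lay below all 11 other rats. Its lymphocyte mean of 5.53 and its kidney tubule mean of 5.70 lay above the vehicle range. Its Kupffer cell mean was 8.43, its endothelial mean 7.11, its pericentral mean 10.33 and its bile duct mean 5.94, all inside the vehicle range.

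Genes that act beside the 6 enzymes differed in both directions. None of the measured genes in the lists below passed the adjusted threshold in limma, which 0% of all 15866 probe sets passed. Of 22 other steroid reductases, dehydrogenases and isomerases 12 were higher and 10 lower, with a median of 0.014. Those with the smallest p were Srd5a3 at -0.13 (SE 0.049), Hsd17b1, which makes estradiol and so runs opposite to Hsd17b2, at 0.14 (SE 0.060), and Hsd17b12 at -0.18 (SE 0.078). H6pd, which supplies the reduced cofactor that Hsd11b1 needs, is given after its value was seen. It averaged 9.47 ± 0.10 in D-penicillamine rats (SD, n = 8) and 9.33 ± 0.18 in vehicle rats (SD, n = 4), a difference of 0.14 (SE 0.075) close to that of Hsd11b1.

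Of 16 genes of steroid sulfation, desulfation and glucuronidation 9 were higher and 7 lower, with a median of 0.005. Papss1, which makes the sulfate donor that Sult1e1 uses, was at -0.27 (SE 0.079) and below the vehicle mean in 8 of 8 treated rats. Papss2, which makes the same donor and is given after its value was seen, was at -0.11 (SE 0.091), with 5 of 8 below. The mean levels of Papss2 were 10.6 in D-penicillamine and 10.7 in vehicle rats, against 6.1 and 6.3 for Papss1. The sulfotransferases Sult2a2 and Sult2a6 were at 0.11 (SE 0.052) and 0.27 (SE 0.14). Of 19 steroid-hydroxylating cytochromes P450 and their partners 8 were higher and 11 lower, with Cyp3a2, a testosterone hydroxylase, at 0.31 (SE 0.088), Cyp1a1 at -0.11 (SE 0.052) and the electron donor Por at 0.55 (SE 0.13), or 0.67 on its other probe set. Of 17 receptors, binding proteins and cofactors 9 were higher and 8 lower. Nr1i2, the pregnane X receptor, was at 0.29 (SE 0.090), Pgrmc2 at -0.21 (SE 0.073) and the coactivator Ncoa1 at -0.21 (SE 0.085), or -0.0088 on its other probe set.

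**Figure D4:**
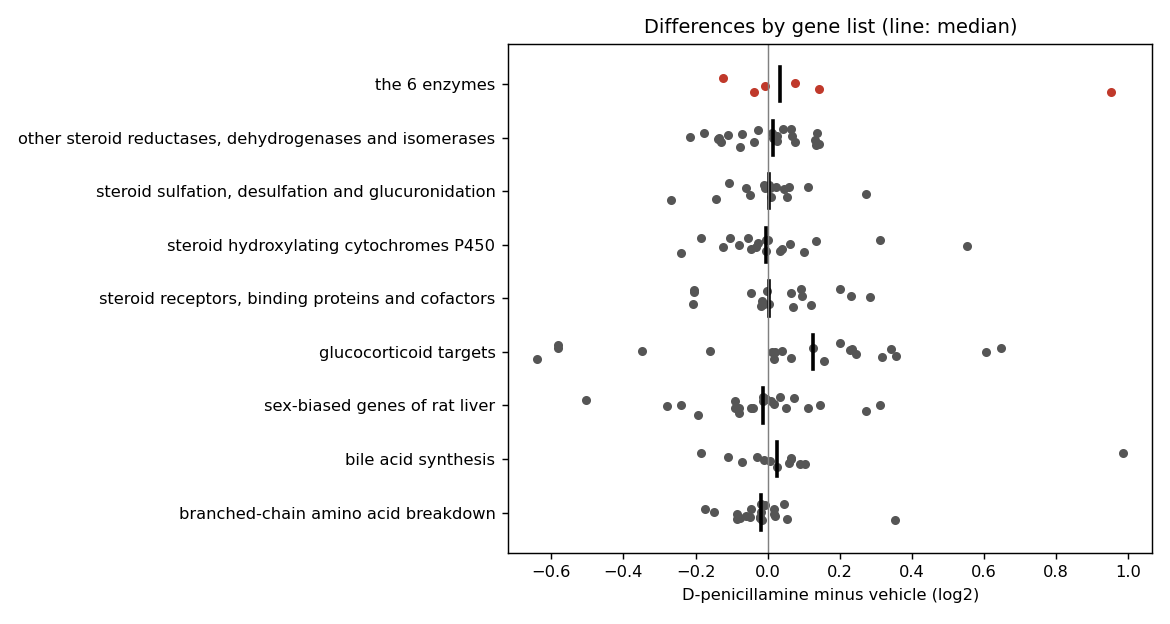
Differences (log2, D-penicillamine minus vehicle) for the 6 enzymes (red) and for the measured genes of 8 lists of related genes (grey), with the median of each as a black line. Hsd17b2 at 0.95 lies beyond every other gene drawn except Nr0b2 at 0.99.

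Targets of the hormone that the glucocorticoid enzymes act on were more often higher than lower. Of 21 glucocorticoid targets 16 were higher and 5 lower, with a median of 0.125. Over all probe sets 48.6% were higher, with a median of -0.0025. The list was chosen with earlier results known, so nothing is read from its counts. The 3 with the smallest p went both ways, Mt1 at -0.64 (SE 0.17), Klf15 at 0.36 (SE 0.10) and Klf9 at 0.61 (SE 0.23), or 0.46 and 0.058 on its other probe sets. Among 13 genes of bile acid synthesis, the pathway that shares Akr1d1, 8 were higher and 5 lower with a median of 0.025. There Nr0b2, a repressor of that pathway, differed by 0.99 (SE 0.27), Cyp7b1 by -0.19 (SE 0.12) and Cyp27a1 by 0.11 (SE 0.083). Nr0b2 did not follow Hsd17b2 in rat 4, where it was 8.39, between the 7.51 and 9.16 of other treated rats.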

How the data were processed

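Each of 12 rats gave 1 array, and the authors deposited 15923 log2 values per array to 2 decimals. Per the submitters' processing notes they were made with RMA, which corrects background, normalizes arrays by quantiles and summarises the probes of a probe set. For its version, filters and genome build, the sources used here give nothing. The values were not transformed further. Array medians lay between 6.30 and 6.35, and precision is limited by how many arrays there are.

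After 57 array controls were left out, 15866 probe sets remained. Of these 12783 had 1 gene symbol, 312 several and 2771 none in the platform annotation, with symbols updated to the GRCr8 assembly. The group difference (D-penicillamine minus vehicle) came from lmFit and eBayes of limma 3.58.1 (R 4.3.3), and p-values were adjusted by Benjamini-Hochberg over all probe sets at a threshold of 0.05. The fit was tested on simulated data. Groups came from the labels, which name individual rats. Correlations of residuals were tested with 100000 permutations within groups, two-sided. Each list gene entered by its probe set with the highest mean.

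The members, the lists and the alternatives were chosen with earlier results of these data known. Named genes are the 6 enzymes, up to 3 per list of related genes by smallest p, and the 3 closest patterns per enzyme that varied more than the median probe set. The alternatives left out each rat, added a replicate block, weights or an RNA quality covariate, or changed the scaling, the probe sets tested or the eBayes settings. Scan records gave the chip lot, day and order of scanning only.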

Additional observations from a re-analysis of the deposited data

Results flagged for a closer look

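For each of the 6 enzymes the highest and lowest rat of both groups, 12 groups in all, was set against its neighbours, and chance marks about 1 in 20 groups. D-penicillamine rat 4 was far below the other treated rats in Hsd17b2, at 9.06 against 10.01 to 10.83, a gap of 0.537 of the treated range. The same rat was far below the other treated rats in Hsd17b10, at 10.74 against 11.01 to 11.13, a gap of 0.692 of the range. Both concern the array with the largest distance from its group, so they are not independent of each other.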

How the results depend on the processing

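With 1 rat left out, the count of probe sets called in limma ran from 0 to 1 (Dbp, without D-penicillamine rat 1), and with array weights it was 2 (Dbp and Inhba). In the other settings it was 0, and no setting called any of the 6 enzymes. Differences of Hsd17b2, Hsd11b1, Hsd11b2 and Akr1d1 kept their sign in 21 of 21 settings. That of Hsd17b2 ran from 0.87 to 1.13 with 1 rat left out, and from 0.745 with the replicate block to 1.18 when vehicle rat 3 and D-penicillamine rat 4 were both left out. The difference of Hsd17b10 kept its sign in 16 and that of Sult1e1 in 11 of 21. These counts include settings that could not change a sign. Changing only the probe sets tested, the eBayes settings or the weights of whole groups left every difference as it was. No difference moved by more than its within-group SD. The rat numbers 1 to 4 occur in both groups, and no pairing by number was evident, though so few numbers cannot exclude one. Same-numbered deviations correlated at 0.245, -0.164, 0.14 and -0.129, and 2 of 4 treated and 0 of 4 vehicle rats correlated best with their own number. With the replicate block, which takes the difference from numbers 1 to 4 alone, 0 probe sets were called, Hsd11b1 was at 0.095 and Hsd17b10 at -0.083. Values carry no measure of signal over background, so weak probe sets could not be set aside by detection.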

Other observations

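Genes whose level differs between the sexes in rat liver, a pattern set by growth hormone and sex steroids, were also read. Of 22 measured, 9 were higher and 13 lower after D-penicillamine, with a median of -0.013. None of the 22 passed the adjusted threshold in limma, which 0% of all 15866 probe sets passed. The 3 genes with the smallest p went both ways. Cyp3a2, typical of male rat liver, was at 0.31 (SE 0.088), with 8 of 8 D-penicillamine rats over the average of the vehicle group. The sulfotransferase gene Sult2a2 was at 0.11 (SE 0.052), with low mean levels of 4.23 in D-penicillamine and 4.115 in vehicle rats. Obp3 was at -0.51 (SE 0.18), and at -0.57 on its other probe set, with 7 of 8 treated rats under the vehicle mean. Cyp2c11 and Cyp2c13, further cytochromes P450 of male rat liver, were at -0.079 (SE 0.059) and -0.046 (SE 0.049), given after their values were seen.

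Of 20 genes of branched-chain amino acid breakdown and mitochondrial transfer RNA processing, where Hsd17b10 works, 6 were higher and 14 lower, with a median of -0.019. Prorp, its partner in transfer RNA processing, was at -0.18 (SE 0.098), Acadsb at 0.35 (SE 0.26) and Aldh6a1 at -0.086 (SE 0.074), or 0.14 on its other probe set. The vehicle rats had an SD of 0.836 for Acadsb, against 0.291 in D-penicillamine rats.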
